A study of Cavia porcellus with 13 samples.

Results

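Unbitten guinea pig skin was represented by 3 of the 13 RNA-seq libraries of the series: every library labelled naive and without a bite. Of these, 2 carry the title prefix CK1 and are called CK1 naive replicates 1 and 2, and 1 carries the prefix EF19-5 and is called the EF19-5 naive library. The prefix was taken as the experiment, although the labels do not explain it. The labels give no strain, age or sex. They do not tie a library to an animal either, so each p-value rests on spread among libraries that could be of technical origin. The study exposed guinea pigs to repeated tick infestation, and skin was biopsied on day 4 after attachment. The bitten libraries served as the frame of comparison: in CK1, 3 from a first exposure and 3 from animals labelled saliva immune, and in EF19-5, 2 with 2 tick exposures and 2 with 3. Exposure history and experiment therefore cannot be told apart in bitten skin, and a CK1 library and an EF19-5 library share an exposure only in the naive state.

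Skin is built from a stratified epidermis that is renewed from a basal layer, hair follicles that make hard and inner sheath keratins, a collagen-rich dermis with vessels and nerves, fat below it, and resident immune cells. In rodents a thin sheet of skeletal muscle, the panniculus carnosus, lies under the dermal fat and can be taken with a biopsy. Levels are in TPM, in which transcripts are corrected for gene length and scaled to a total of 1000000 per library, so levels can be compared between genes, but a larger share of one tissue lowers the share of all others. In a bulk biopsy, fewer cells of a type and less RNA per cell cannot be told apart.

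Of 26855 genes in the deposited table, 13542 reached 1 TPM in at least 2 of the 3 naive libraries, 11294 of them with a gene symbol and 2248 without one. All 3 libraries held 12824 of these genes at 1 TPM or more, and 718 were at that level in exactly 2, most often with replicate 2 as the library below it (404 genes). A further 804 genes reached 1 TPM in a single naive library, 390 of them in the EF19-5 library, and 9719 genes were listed at 0 in all 3. The libraries held between 13270 and 13750 genes at 1 TPM or more, and 50% of the transcripts came from the top 315, 192 and 351 genes in CK1 replicate 1, CK1 replicate 2 and EF19-5. The 10 most abundant genes took 10.3%, 17.8% and 8.02% of the transcripts in the same order. Replicate 2 was thus the library most dominated by few genes. Across the 14979 genes tested below, Pearson's r of log2(TPM + 1) was 0.974 between the CK1 replicates, 0.962 between replicate 1 and EF19-5, and 0.927 between replicate 2 and EF19-5. These correlations are across genes, which are not independent replicates.

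Skeletal muscle transcripts led both CK1 naive libraries, and keratins of epidermis and follicle led the EF19-5 naive library. Among the 20 genes of highest mean TPM, 7 were on the muscle lists and 6 on the epidermis or follicle lists, and 6 had no symbol. ACTA1, the skeletal muscle actin, was at 19079 and 33911 TPM in CK1 replicates 1 and 2 and at 4686 TPM in EF19-5 (mean 19225 ± 14613, SD, n = 3). It was the most abundant gene in both CK1 libraries and the 11th in EF19-5. CKM, muscle creatine kinase, was at 14494, 25512 and 2808 TPM, and ATP2A1, the calcium pump of fast muscle, at 10575, 18958 and 1651 TPM. For all 3 of these genes replicate 2 was highest and EF19-5 lowest. The other named muscle genes of the 20 were the fast light chain MYLPF and the fast troponin subunits TNNI2, TNNC2 and TNNT3. Gapdh, the glycolytic enzyme often used as a reference gene, had the same order of libraries, at 8904, 14507 and 3763 TPM.

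The keratin genes of the 20 had the opposite order. KRT1, a keratin of the differentiating epidermis, was at 7214, 3002 and 11674 TPM and was the most abundant gene of the EF19-5 library. KRTAP7-1, a keratin-associated protein of the hair shaft, was at 7542, 2493 and 11270 TPM. KRT14, the keratin of the basal layer, was at 8013, 4287 and 7904 TPM, so that replicate 1 and EF19-5 were close and replicate 2 lower. KRT25 and KRT71, keratins of the inner root sheath, and KRTAP8-1 were also highest in EF19-5 and lowest in replicate 2. Of the 20, 12 were highest in replicate 2, 7 in EF19-5 and 1 in replicate 1. Among the 6 genes without a symbol, 4 were at least 2-fold higher in replicate 2 than in EF19-5, and ENSCPOG00000024660 had the narrowest range, at 4906, 5091 and 5299 TPM.

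**Figure D1:**
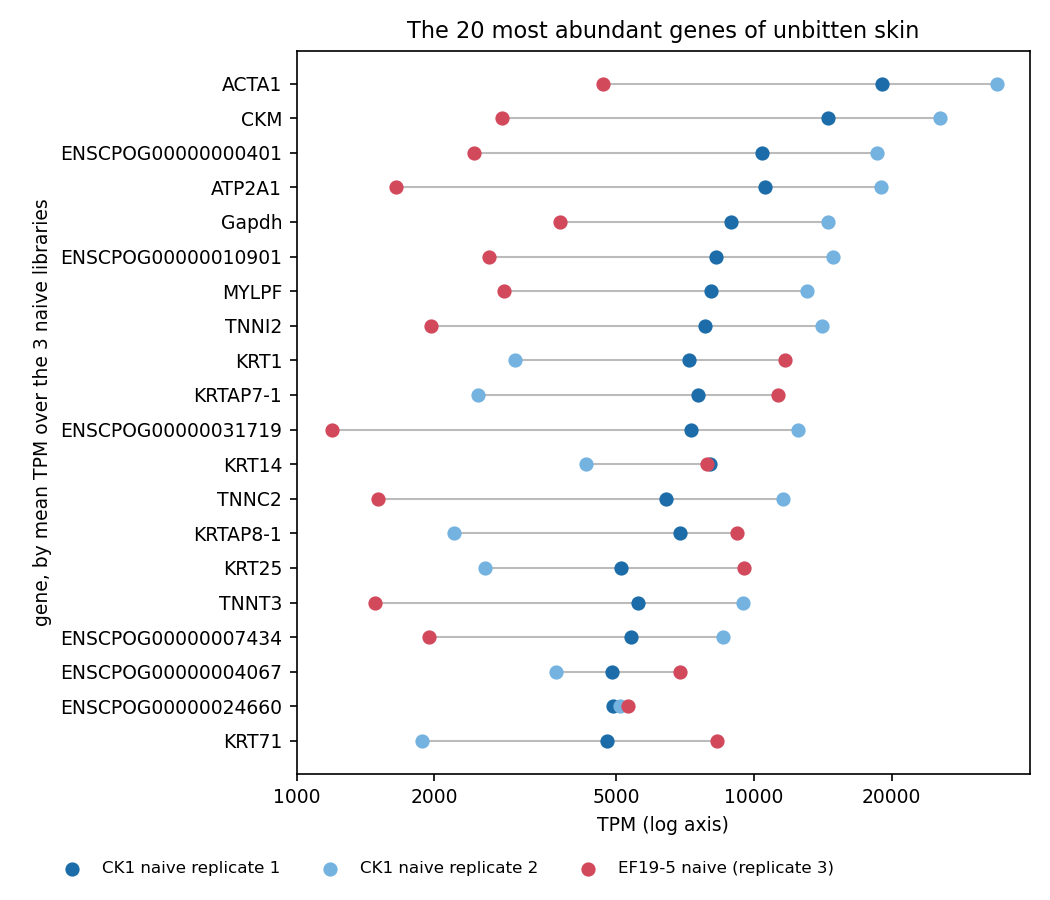
TPM on a log axis of the 20 genes with the highest mean over the naive libraries, with 1 point per library and a grey line from the lowest to the highest. Muscle genes such as ACTA1 run from 4686 TPM in EF19-5 to 33911 TPM in CK1 replicate 2, and keratin genes such as KRT1 run the other way, from 3002 to 11674 TPM.

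Tissue makeup was described by the summed TPM of gene lists, given as a percentage of each library. The skeletal muscle lists took 10.7% of CK1 replicate 1, 18.5% of CK1 replicate 2 and 2.69% of EF19-5. Hair follicle lists took 4.11%, 1.64% and 6.02%, and epidermis lists 2.81%, 1.36% and 3.62%. By these sums, muscle was the larger part in both CK1 libraries, and follicle and epidermis the larger part in EF19-5. The lists were matched unevenly, with 53 of 60 muscle, 46 of 72 follicle and 27 of 56 epidermis entries in the table. Shares of different tissues are therefore less comparable than shares of the same tissue between libraries. Collagen and matrix genes took 0.515%, 0.317% and 1.59%, and adipocyte genes 0.370%, 0.276% and 0.472%. Immune lists together took 0.389%, 0.251% and 0.427%, of which a large part was CFD, the complement protease adipsin, which fat cells secrete and which is on the adipocyte list too. Without CFD, the mean immune share of the naive libraries was 0.209% in place of 0.356%, and the mean adipocyte share 0.226% in place of 0.373%.

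Set among all 13 libraries, CK1 replicate 2 had the largest muscle share and the smallest epidermis and immune shares. With muscle list genes taken out of the total, its follicle share was still 0.439 times that of CK1 replicate 1 and its epidermis share 0.529 times. The EF19-5 naive library had a follicle share equal, to the digits given, to that of the highest bitten library (6.02%). Its collagen share of 1.59% was the largest of the 13, above the range of 0.459% to 1.16% in the bitten libraries of the same experiment. Its muscle share of 2.69% was also above all 4 of those libraries, which ran from 0.775% to 1.74%. In CK1, the bitten libraries ran from 2.69% to 11.8% muscle, a range that holds replicate 1 but not replicate 2. Immune lists took 0.648% to 0.973% of the CK1 bitten libraries and 0.376% to 0.683% of the EF19-5 bitten libraries. CFD was at 2752 to 7086 TPM in CK1 bitten skin and at 531 to 1990 TPM in EF19-5 bitten skin. The fat share, which includes CFD, ran from 0.625% to 1.60% in CK1 bitten and from 0.221% to 0.563% in EF19-5 bitten libraries. Without CFD, the immune lists took 0.231%, 0.139% and 0.257% of the naive libraries, 0.264% to 0.489% of CK1 bitten and 0.316% to 0.483% of EF19-5 bitten libraries, a difference that was not tested.

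**Figure D2:**
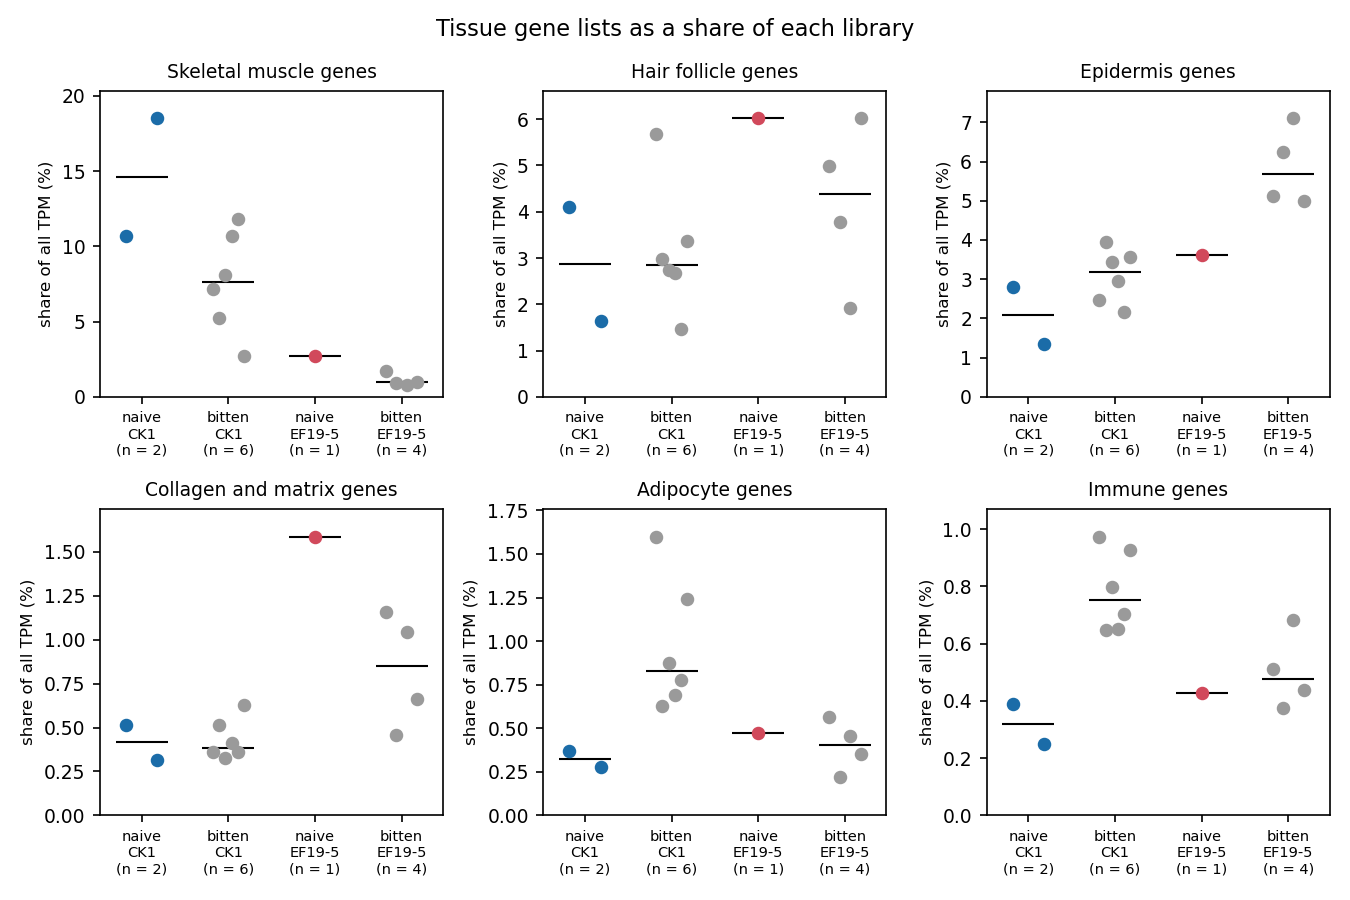
Share of all TPM (%) taken by 6 groups of gene lists in each of the 13 libraries, with 1 point per library, naive libraries coloured, bitten libraries grey and the median as a bar. The muscle share falls from 18.5% and 10.7% in the CK1 naive libraries to 2.69% in the EF19-5 naive library, whose collagen share of 1.59% is the highest point of its panel.

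Epidermal markers that could be matched by symbol were abundant, and several classical ones (KRT10, FLG, LORICRIN and IVL) were not matched. Every matched gene of the basal keratinocyte list (11 genes) and of the epidermal differentiation list (15 genes) reached 1 TPM in at least 2 naive libraries. KRT5, the partner of KRT14, was at 3688, 1733 and 3183 TPM, and TP63, the transcription factor of the basal layer, at 138, 73.2 and 120 TPM. Among differentiation genes, KRTDAP was at 2649, 1325 and 4685 TPM and CDSN, a protein of the junctions between cornified cells, at 1011, 432 and 1391 TPM. CASP14, a protease of the cornifying layer, was at 158, 55.1 and 405 TPM. The ratio of KRT1 to KRT14, differentiating over basal, was 0.900 and 0.700 in CK1 and 1.48 in EF19-5. Bitten skin had a like split, with 0.534 to 1.01 in CK1 and 1.55 to 2.77 in EF19-5, so the EF19-5 naive library lay above all CK1 libraries in this ratio.

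Immune cells were represented by low levels of lineage genes. Among macrophage genes, CD68 was at 32.9, 18.4 and 62.9 TPM, and C1QB, a chain of complement C1q, at 21.9, 19.7 and 62.0 TPM. CD207, the langerin of Langerhans cells, was at 26.1, 13.8 and 10.5 TPM, so this marker of epidermal dendritic cells was present in every naive library. T cell genes were near the limit, with CD3E at 1.88, 0.729 and 2.35 TPM, and only 3 of 19 matched genes of that list reached 1 TPM in at least 2 libraries. None of the 11 matched genes of the natural killer and cytotoxic list did. The B cell and plasma cell list took 0.0298%, 0.0179% and 0.0390% of the transcripts, more than the macrophage list (0.0182%, 0.0127% and 0.0313%). Most of it was XBP1 and PRDM1, transcription factors of plasma cells that epithelia express too, at 210, 133 and 243 TPM and at 76.2, 31.5 and 141 TPM. Only 4 of its 15 matched genes reached 1 TPM in at least 2 naive libraries, and 6 were listed at 0 in all 3, the B cell genes MS4A1, CD79B and PAX5 among them. Also listed at 0 in all 3 were the granulocyte enzymes MPO and EPX and the cytokines Il4, Il5, Il10, Il17a and Ifng. Of these, MPO, EPX and Il5 were at 0 in every bitten library too, and the others reached at most 1.79 TPM there. The depth of the libraries is unknown, so a gene listed at 0 is not shown to be absent. Mast cell genes were detected at low levels, MS4A2, a chain of the IgE receptor, at 2.17, 1.46 and 2.44 TPM. The neutrophil marker S100A9, which is on the activated keratinocyte list too, was at 116, 80.8 and 159 TPM.

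Fat and stroma were led by a few secreted proteins. Besides CFD (1580, 1113 and 1707 TPM), the adipokine LEP was at 401, 240 and 1267 TPM, the fatty acid carrier FABP4 at 261, 154 and 493 TPM, and ADIPOQ at 266, 82.9 and 352 TPM. LEP was highest in EF19-5, and the ratio of LEP to ADIPOQ was 1.51, 2.90 and 3.60. UCP1, the uncoupler of brown fat, was listed at 0 in every naive library. Among sebaceous genes DGAT2, which completes triglyceride synthesis, was at 518, 221 and 727 TPM. Endothelial PECAM1 was at 32.1, 23.2 and 19.2 TPM, and the melanocyte genes PMEL and TYR were at 35.6, 31.5 and 17.1 TPM and at 16.1, 21.8 and 13.3 TPM.

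Which genes differed between the CK1 naive libraries and the EF19-5 naive library was tested with limma on log2(TPM + 1) over 14979 genes, with a spread pooled over all 13 libraries, because the EF19-5 side is a single library assumed to vary like the others. No gene passed an adjusted p of 0.05 (0 called, 0%; smallest adjusted p = 0.148), and 2266 genes had an unadjusted p under 0.05 in limma. Of these, 1308 (8.73% of genes tested) were higher in EF19-5 and 958 (6.4%) lower. That split turned with the scaling, to 1052 higher and 1360 lower after median-of-ratios scaling and to 824 and 1425 with muscle genes removed. An exact permutation test of a single gene could not help, since 2 libraries against 1 allow only 3 arrangements. The median log2 difference over all genes was 0.21 in favour of EF19-5, and median-of-ratios scaling brought it to 0.01, so list medians below are read against 0.21. Counts of genes above or below both CK1 libraries are likewise read against 53.8% above, 24.5% below and 21.7% between over all genes. Without replicate 2, the unadjusted count was 861, and limma called 359 genes with array weights and 82 with no filter on low values.

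Muscle genes were mostly lower in EF19-5, with 50 of 53 below both CK1 libraries. All 18 genes of the fast fibre list were below both CK1 libraries in EF19-5, with a median log2 difference of -2.31, and 20 of 21 genes shared by both fibre types were, with a median of -2.43. TCAP, a titin-binding protein of the Z disc, was at 1997, 3214 and 268 TPM (log2 difference -3.24, SE 0.93, limma adjusted p = 0.24). RYR1, the calcium release channel, was at 375, 725 and 51.2 TPM (-3.32, SE 0.84, adjusted p = 0.23 by limma). In both genes the EF19-5 library was far below either CK1 library, and the CK1 replicates were themselves apart, with replicate 2 higher. Slow fibre genes had a smaller median of -1.04, with 12 of 14 below both CK1 libraries. ATP2A2, the pump of slow fibres that other tissues use too, was at 218, 166 and 154 TPM. Nuclear genes of the respiratory chain were below both CK1 libraries in 23 of 27 cases, with a median of -0.34, and the mitochondrial CYTB was at 18.4, 31.7 and 7.90 TPM (-1.50, SE 0.31, limma adjusted p = 0.21).

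Keratin genes formed the opposite group. Of 15 epidermal differentiation genes, 14 were above both CK1 libraries in EF19-5 (median log2 difference 1.25), as were 21 of 22 follicle keratins (median 1.22) and 6 of 6 keratin-associated protein genes (median 1.16). With muscle genes removed and the rest rescaled, 14, 20 and 3 genes were above both, with medians of 1.06, 1.03 and 0.97. CASP14 differed by 2.10 (SE 0.70, limma adjusted p = 0.25) and the serine protease KLK7, at 589, 210 and 1052 TPM, by 1.58 (SE 0.57, limma adjusted p = 0.28). In contrast, the basal keratinocyte list had a median of 0.26, near that of all genes, and 2 of 11 genes above both CK1 libraries. The CK1 replicates themselves differed in these lists: all 15 differentiation genes, 21 of 22 follicle keratins and all 11 basal genes were lower in replicate 2 than in replicate 1, with medians of -1.12, -1.12 and -0.94. Muscle share differed between the libraries in the opposite direction, and its part in these differences was not tested beyond the rescaling above.

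Collagen genes gave some of the largest differences among structural genes. COL1A1, a chain of type I collagen, was at 1405, 716 and 5316 TPM (log2 difference 2.40, SE 0.58, limma adjusted p = 0.23). COL1A2, its partner chain, was at 821, 418 and 3281 TPM (2.48, SE 0.67, limma adjusted p = 0.24). The EF19-5 naive level of COL1A1 lay above all 12 other libraries, whose bitten maximum was 2837 TPM. SPARC, a collagen-binding matrix protein, and COL3A1, the chain of type III collagen, were at 3203 and 3287 TPM in EF19-5 against 1257 and 1147 TPM in CK1 replicate 1. Not all matrix genes followed: fibronectin, FN1, was at 85.7, 105 and 99.3 TPM. In all, 11 of 14 genes of the list were above both CK1 libraries and none below, with a median of 0.89.

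Macrophage genes were above both CK1 libraries in 14 of 16 cases (median 0.98), and complement genes in 11 of 11 (median 0.71). No gene of either list was called, and the medians of CK1 replicate 2 minus replicate 1 were -0.35 and -0.50. Among single genes, the chemokine CCL22 was at 21.4, 6.77 and 52.4 TPM (log2 difference 2.02, SE 0.65, limma adjusted p = 0.25), and IL1A, an alarmin cytokine of keratinocytes, at 13.7, 4.54 and 33.8 TPM (1.95, SE 0.57, limma adjusted p = 0.24). Endothelial genes were mostly lower in EF19-5, with 12 of 17 below both CK1 libraries (median -0.52). The CK1 replicates differed by as much in this list, with a median of -0.59 for replicate 2 minus replicate 1 and 13 of 17 genes lower. CLDN5, the claudin of endothelial tight junctions, was at 16.7, 12.4 and 3.93 TPM (-1.64, SE 0.37, limma adjusted p = 0.22). Ribosomal protein genes, 25 of 25 above both CK1 libraries, had a median of 0.23 beside 0.21 over all genes, and median-of-ratios scaling left 3 of them above both.

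The adipocyte list was split. LEP and FABP4 were higher in EF19-5 by 2.03 (SE 0.83) and 1.29 (SE 0.51), both at a limma adjusted p of 0.30. GPD1, LPIN1 and ACACB, enzymes of glycerol, phosphatidate and malonyl-CoA metabolism that skeletal muscle also expresses, were lower, with GPD1 at 273, 401 and 107 TPM and ACACB at 41.6, 45.9 and 15.7 TPM. Immediate early genes, which cells transcribe within minutes of a stimulus, were below both CK1 libraries in 12 of 28 cases and between them in 12. FOS was at 1039, 451 and 312 TPM, so that replicate 1 stood apart and replicate 2 was near EF19-5. NR4A1, an orphan nuclear receptor, was at 214, 163 and 20.7 TPM (log2 difference -3.11, SE 0.78, limma adjusted p = 0.23), and ATF3, a stress-response factor, at 252, 130 and 35.8 TPM (-2.31, SE 0.56, limma adjusted p = 0.23). The immediate early share of CK1 replicate 1, 0.760%, was the largest of the 13 libraries.

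**Figure D3:**
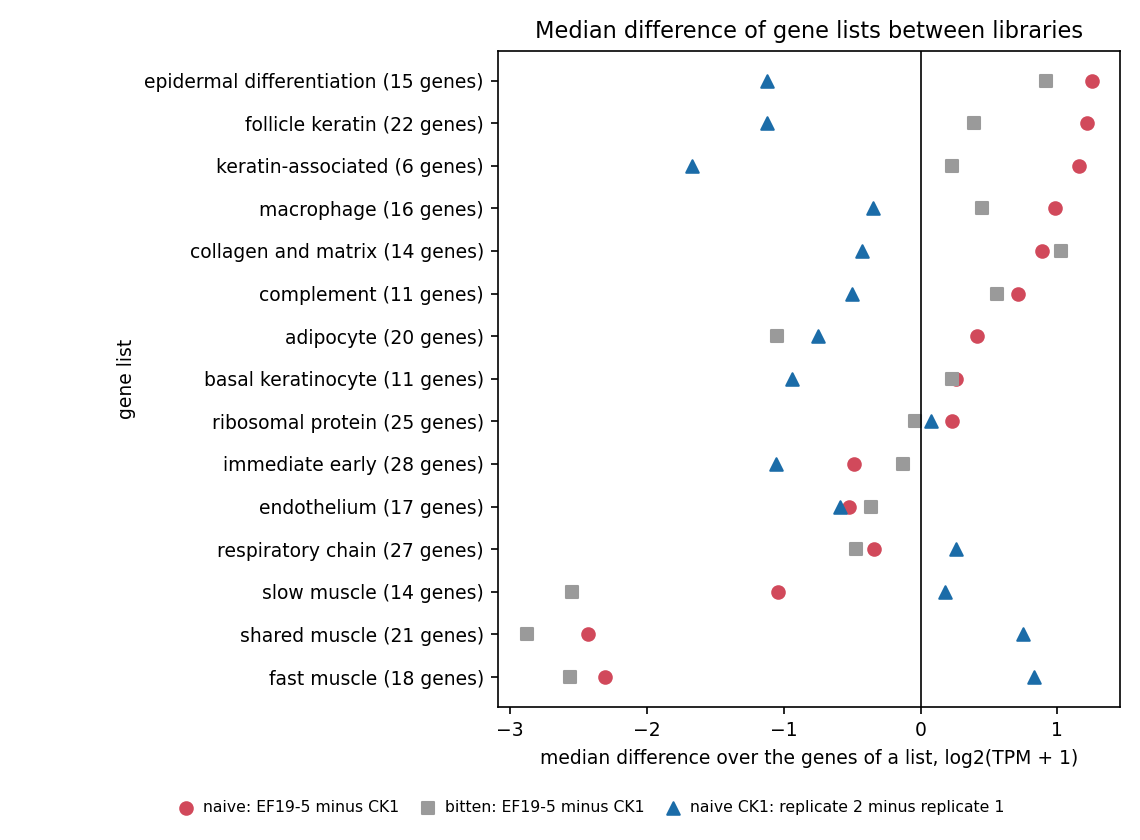
Median difference in log2(TPM + 1) over the genes of 15 lists for EF19-5 minus CK1 naive skin (circles), EF19-5 minus CK1 bitten skin (squares) and CK1 naive replicate 2 minus replicate 1 (triangles). The fast muscle list lies at -2.31 in naive and -2.56 in bitten skin and at 0.83 between the CK1 replicates, and the adipocyte list lies at 0.41 in naive and -1.05 in bitten skin.

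The 12 genes with a symbol and the smallest p in each direction were chosen after their values were seen, because no gene was called. GABRP, a subunit of an epithelial GABA receptor, was at 11.8, 10.2 and 56.2 TPM (log2 difference 2.26, SE 0.34, limma adjusted p = 0.148). The bitten libraries ran from 12.4 to 30.3 TPM in CK1 and from 19.7 to 28.6 TPM in EF19-5, so the EF19-5 naive library was the highest of all 13. TXNIP, a thioredoxin-binding protein, was at 211, 195 and 496 TPM, and ANGPTL4, a secreted inhibitor of lipoprotein lipase, at 5.25, 2.57 and 19.0 TPM. Others on the higher side were HOMER2, a scaffold protein, the claudin CLDN17, the cathepsin CTSV and the matrix proteoglycan OMD.

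On the lower side, NFIX, a transcription factor of the nuclear factor I family, was at 309, 356 and 145 TPM (log2 difference -1.19, SE 0.18, limma adjusted p = 0.148). Its bitten libraries ran from 266 to 316 TPM in CK1 and from 112 to 154 TPM in EF19-5, so the experiments did not overlap in either state. NFE2L1, a transcription factor that controls proteasome genes, was at 223, 246 and 89.5 TPM and was likewise apart in bitten skin, 183 to 253 against 79.3 to 134 TPM. SOX12, a transcription factor of the SOX family, was at 21.1, 43.9 and 1.85 TPM (log2 difference -3.46, SE 0.52, limma adjusted p = 0.148). CEP131, a centrosomal protein, was at 37.2, 22.1 and 5.27 TPM, and in this gene both CK1 naive libraries stood above every bitten library, whose ranges were 3.39 to 6.47 TPM in CK1 and 4.52 to 8.06 TPM in EF19-5. Also on this side were TRAK1, NT5C1A, FAM78A, RASD1, LMOD1, ACACB, TMEM109 and WSCD1.

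Whether the experiments differed in the same genes in bitten skin was examined in the bitten libraries. Both comparisons came from the same fit and used the same pooled spread for each gene, so calls in both are not independent. The share of all genes with the same sign in both was not counted. EF19-5 bitten skin was higher than CK1 bitten skin in 1583 genes (10.6%) and lower in 1599 (10.7%) at an adjusted p under 0.05, a split that became 1203 and 2000 with muscle genes removed. Of the 1308 genes higher in EF19-5 naive skin at an unadjusted p under 0.05, 1213 had the same sign in bitten skin, 565 were called in the same direction (43.2%) and 7 in the opposite one. Of the 958 lower genes, 945 had the same sign and 746 were called in the same direction (77.9%). The log2 differences of the naive and the bitten comparison, which share no library, had a Pearson's r of 0.728 and a Spearman's rho of 0.66 over the 14979 genes. An interaction of experiment and bite called 0 genes in limma (0%; smallest adjusted p = 0.825), with 421 at an unadjusted p under 0.05. Fast muscle genes had medians of -2.31 in naive and -2.56 in bitten skin, and epidermal differentiation genes 1.25 and 0.92. Follicle keratins had 1.22 in naive and 0.39 in bitten skin, where 0 of 22 were called. The adipocyte list had opposite signs, 0.41 and -1.05, with 10 of 20 genes called lower in EF19-5 bitten skin.

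**Figure D4:**
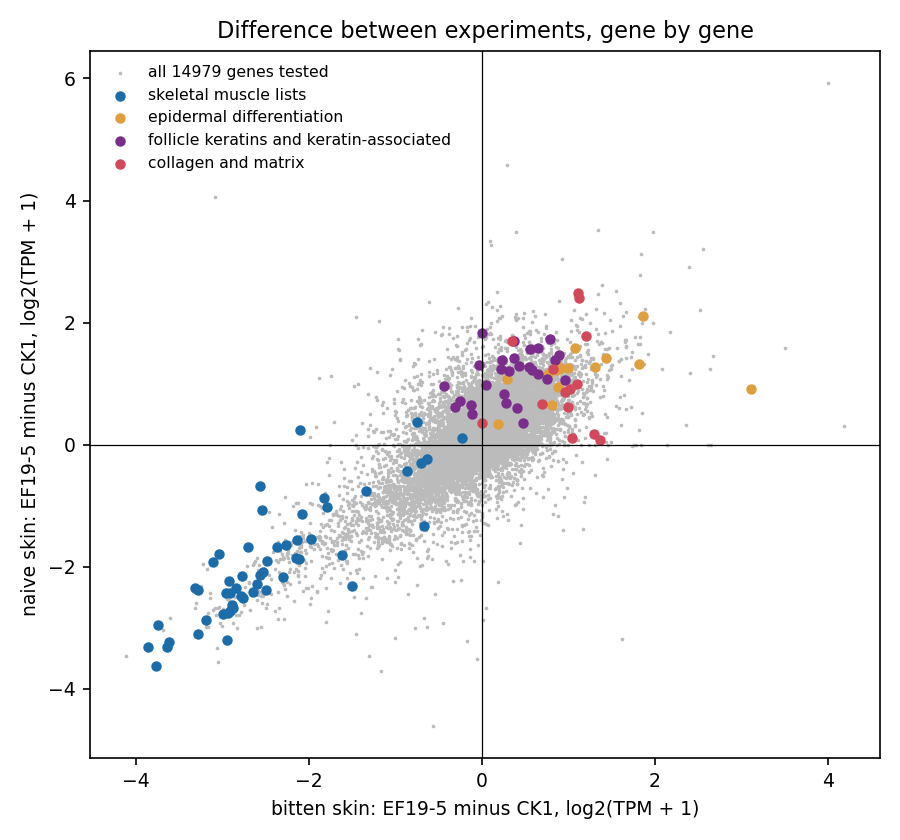
Difference between experiments (EF19-5 minus CK1) in log2(TPM + 1) for each of the 14979 genes, in bitten skin on the x axis and in naive skin on the y axis, with 4 groups of lists coloured. Muscle genes lie at the lower left and epidermal differentiation and collagen genes at the upper right, along a Pearson's r of 0.728 across genes.

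Some genes were near 0 on one side. In EF19-5 10 genes reached 5 TPM while both CK1 naive libraries were under 1 TPM, and 15 genes had the reverse pattern. MRPS36, a mitochondrial protein, was listed at 0 in both CK1 naive libraries and was at 59.9 TPM in EF19-5, and no CK1 bitten library exceeded 0.224 TPM. SLC2A4RG was listed at 0 in both CK1 naive libraries and was at 15.6 TPM in EF19-5, but reached 33.2 TPM in CK1 bitten skin. In the reverse group, the cytokine IL17B was at 10.1, 15.2 and 0.788 TPM, PNMT, which makes adrenaline, at 8.40, 7.72 and 0 TPM, and MZB1, a chaperone of antibody-secreting cells, at 6.61, 10.6 and 0.856 TPM. UBB, a ubiquitin gene that all cells use, was listed at 0 in EF19-5 and at 6.24 and 10.4 TPM in CK1, so a value of 0 is not read as absence. The reason for that 0 was not tested. These genes were chosen for their extreme values, and no test applies to them.

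The CK1 naive replicates were also compared with each other, with no test because each side is 1 library. Of 11270 genes with at least 5 TPM in the higher library, 6 (0.0532%) were higher in replicate 2 by at least 2 on the log2 scale and 29 (0.257%) lower. KRT24, a type I keratin, was at 9.20 TPM in replicate 1 and 0.166 TPM in replicate 2, against 9.25 TPM in EF19-5. UGT1A6, a detoxifying transferase, was at 85.8, 17.9 and 42.8 TPM, and PHF23 at 36.2, 2.81 and 7.34 TPM. Higher in replicate 2 were the small RNA genes RNase_MRP (3.35, 21.8 and 5.16 TPM) and SNORD86 (0.238, 24.1 and 0.410 TPM). Over all genes, the median size of the difference was 0.349 between the CK1 replicates and 0.394 between EF19-5 and their mean. These sizes are not directly comparable. The first sets 1 library against 1 and the second 1 against a mean of 2, and neither was corrected for scaling.

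Naive and bitten libraries did not overlap in a few measures, which were chosen after their values were seen. Heat shock genes took 0.597%, 0.586% and 0.615% of the naive libraries and at most 0.582% of the bitten ones. The neutrophil and eosinophil list took at most 0.0176% of naive and at least 0.0209% of bitten libraries. For the activated keratinocyte list, matched by S100A9 alone, these values were 0.0159% and 0.0171%. S100A9 also made up most of the neutrophil and eosinophil share in the naive libraries, so these lists are not separate measures. Only 4 of the 16 matched genes of the neutrophil and eosinophil list reached 1 TPM in at least 2 naive libraries. These shares were not tested. The ratio of summed fast to slow muscle genes was 22.3 and 28.6 in CK1 naive skin and 15.5 in EF19-5 naive skin, against 5.53 to 12.9 in CK1 and 3.85 to 11.0 in EF19-5 bitten skin. All 3 naive libraries lay above all 10 bitten ones. An exact two-sided permutation test within experiments gave p = 0.00714 for the log2 ratio, the smallest that its 140 arrangements allow, and an adjusted p of 0.0929 over the 13 ratios computed, which a single ratio could not bring below 0.05. Of the 13 ratios, that of the slow myosin MYH7 to the fast myosin MYH1 overlapped between naive and bitten skin. It was 0.2105, 0.119 and 0.158 in naive skin, against 0.139 to 0.283 in CK1 and 0.136 to 0.259 in EF19-5 bitten skin. PVALB, the calcium buffer of fast fibres, was at 1473, 2568 and 772 TPM, and the bitten libraries had a lowest value of 152, a median of 384 and a highest of 561 TPM (log2 difference 1.97, SE 0.29, limma adjusted p = 0.0413). It was 1 of 6 genes called between naive and bitten skin (0.0401% of genes tested), 2 of them higher and 4 lower in naive skin. Leaving out naive replicate 1, 2 or 3 gave 3, 1 and 16 calls, and PVALB lost its call without replicate 1 (adjusted p = 0.084 by limma) and without replicate 2 (adjusted p = 0.315 by limma). The other gene higher in naive skin was ENSCPOG00000035456, at 6.24, 8.35 and 2.36 TPM against at most 1.06 TPM in bitten skin (adjusted p = 0.0191 by limma), and it too lost its call without replicate 1 or 2 (0.0843 and 0.26). Lower in naive skin were ENSCPOG00000008260, listed at 0 in all 3 naive libraries and at 422 to 1365 TPM in bitten skin (adjusted p = 1.62e-10 by limma), ENSCPOG00000036317, CDHR1, a cadherin family member, and KLK13, a kallikrein protease. Of the 6 calls, that of ENSCPOG00000008260 alone held whichever naive library was left out. The muscle share ran from 2.69% to 18.5% in naive and from 0.775% to 11.8% in bitten libraries, and its part in PVALB was not tested.

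HOX genes, transcription factors whose expression in skin keeps a record of position along the body, were read in the same libraries. HOXC6 was at 18.1, 17.9 and 18.5 TPM in naive skin, a range narrower than in any other HOX gene named here, and at 4.01 to 13.9 TPM in bitten skin (log2 difference naive minus bitten 1.14, SE 0.31, limma adjusted p = 0.137). HOXC10 was at 4.85, 7.09 and 5.40 TPM in naive skin and at most 3.69 TPM in bitten skin (1.79, SE 0.32, limma adjusted p = 0.0729). For both genes the naive and the bitten libraries did not overlap, and neither passed the test. In the other HOX genes examined, HOXC8, HOXB6, HOXA5, HOXD8, HOXD9 and HOXA9, they did overlap. HOXA5, for one, was at 22.3, 13.1 and 22.0 TPM in naive skin and at 11.4 to 30.5 TPM in bitten skin. The share of all genes without such overlap was not counted, so the lack of overlap is not read as particular to HOX genes. Between the experiments, 2 of 7 central HOX genes were above both CK1 libraries and 4 below, and 4 of 9 limb position genes were above both and 4 below. HOXD8 was at 54.5, 89.1 and 20.3 TPM and HOXD9 at 18.9, 26.9 and 7.19 TPM, both lower in EF19-5. The limb and trunk factors TBX15, at 97.5, 164 and 35.04 TPM, and IRX3, at 130, 151 and 68.3 TPM, were lower there too (log2 differences -1.82 and -1.02, limma adjusted p = 0.28 and 0.24). HOXC13, a follicle regulator, was at 116, 97.7 and 144 TPM. The body site of the biopsies is not given in the sources used here, and these genes were chosen after their values were seen.

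**Figure D5:**
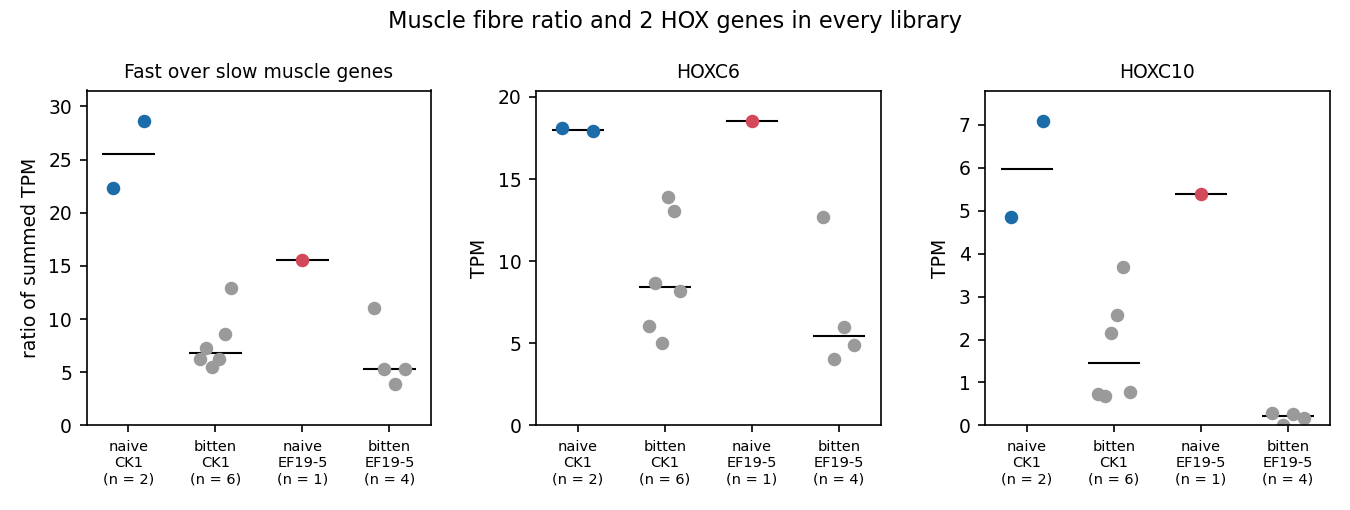
Ratio of summed fast to summed slow muscle TPM (left) and TPM of HOXC6 (middle) and HOXC10 (right) in each of the 13 libraries, with 1 point per library, naive libraries coloured, bitten libraries grey and the median as a bar. In each panel all 3 naive libraries lie above all 10 bitten libraries, at 15.5 or more for the ratio, 17.9 TPM or more for HOXC6 and 4.85 TPM or more for HOXC10. The panels were chosen after their values were seen. Not drawn are the ratio of MYH7 to MYH1 and the genes HOXC8, HOXB6, HOXA5, HOXD8, HOXD9 and HOXA9, in which naive and bitten libraries overlapped.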

How the data were processed

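Total RNA of skin, extracted on Qiagen columns, went into Illumina libraries (per the labels' protocols). The authors deposited TPM values for 26855 genes in 13 libraries, and the values of a library add up to 1000000. Tools listed, per the submitters' processing notes, were StringTie, Trimmomatic and DESeq. No aligner, build or annotation was given in the sources used. TPM keeps no depth, so the depth of each library is unknown. No coordinates or sequences are given, and 8601 genes carry no symbol.

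Genes with at least 1 TPM in at least 2 of 13 libraries (14979) entered a fit in R 4.3.3 with limma 3.58.1 on log2(TPM + 1), with 6 means for group and experiment, 7 residual degrees of freedom, moderated variances that follow the intensity, and two-sided p-values adjusted by Benjamini and Hochberg's method. The title prefix was taken as the experiment. Because of the pseudocount of 1, differences of low genes are understated. Naive against bitten skin used an experiment term and a naive term, and was added after seeing the data, as were the permutation tests of 13 ratios. In simulated data with 200 changed genes, the naive comparison recovered 31.3%, 64.2% and 81.8% at log2 sizes 1, 2 and 3, with 5 false calls. Low genes were left out of the changed ones, and the noise was normal and independent between genes. The EF19-5 naive library was assumed to vary like the others. Recovery in the real libraries can therefore be lower.

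The 40 gene lists held 863 entries, 620 of them in the table. The members and lists were chosen with earlier results of these data known. Named genes were the 20 most abundant, up to 12 called each way, of each list the 4 most abundant and the 2 with the smallest p, and the 6 largest differences each way between the CK1 replicates; others were chosen after their values were seen. Alternatives changed the pseudocount, filter, scaling, weights, muscle genes and libraries. Some named items are not reported here.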

Additional observations from a re-analysis of the deposited data

How the results depend on the processing

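The naive comparison called 0 genes under 8 of its 10 other settings and without either CK1 naive library (0 to 0), where the smallest adjusted p ran from 0.0545 to 0.787. It called 82 genes with no filter on low values, 66 of them outside the filtered genes, and 359 with array weights, where a single library had a weight of 51.9. Array weights gave 6357 calls between experiments in bitten skin, and no filter gave 68 for the interaction. For the 24 genes of smallest p, all 288 values kept their direction. Leaving out a naive library gave mean shares of 2.08% to 3.22% for epidermis, 2.88% to 5.06% for follicle, 6.68% to 14.6% for muscle, 0.323% to 0.421% for fat and 0.320% to 0.408% for immune genes. Fat was 0.226% without CFD and 0.474% over genes with a symbol, and immune genes 0.209% and 0.452%. Naive against bitten skin gave between 1 and 16 calls when a naive library was left out. No paired analysis was possible because the labels give no replicate numbers, only accession order. The groups are 2 libraries and 1, the depth is unknown, and unadjusted counts ranged from 861 to 3757.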
